A study of Mus musculus with 4 samples.

Results

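The mitochondrial chromosome of the mouse is a small circular DNA, separate from the nuclear genome, and all 37 of its annotated genes were followed here in 4T1 cells that received uniSTING mRNA or a control mRNA. The genes were chosen by position alone, as every gene that the count tables place on the chromosome MT, out of 53647 genes in all. They comprise 13 protein-coding genes, 2 rRNA genes and 22 tRNA genes. 35 of them had at least 1 count, and mt-Tf and mt-Tg, the tRNA genes for phenylalanine and glycine, had none in any library.

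4T1 is a mouse mammary carcinoma cell line, labelled here as wild type. Both groups received an mRNA: the Mock group received EGFP mRNA, which encodes a fluorescent protein, and the uniSTING group received mRNA for uniSTING, a designed mimic of STING, an adaptor protein of innate immunity. The labels describe delivery either with the TransIT-mRNA reagent or in SS-OP lipid nanoparticles without saying which was used for these libraries, and no dose or time is given. Each group had 2 libraries, called preparations in the labels. Nothing says that these came from separate cultures. The p-values set the difference between the groups against the spread between libraries of a group, estimated with information from all genes. That spread may be technical. The series states its question as the effect of uniSTING on type I interferon signalling and on downstream pathways.

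Mitochondrial DNA is transcribed by a dedicated polymerase, Polrmt, with the factors Tfam and Tfb2m, into long RNAs that run over most of either strand and are then cut into the separate rRNAs, mRNAs and tRNAs. Most tRNA genes sit between the other genes, and their excision releases the mRNAs on either side. The mRNAs encode core subunits of complexes I, III, IV and V of oxidative phosphorylation, the rRNAs form the mitochondrial ribosome, and all other subunits come from nuclear genes. Because many genes share 1 precursor, differences in level between genes of 1 strand are generally attributed to processing and stability of the RNAs.

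The 4 libraries held 17502694 and 22039546 counts (Mock) and 18843543 and 25071840 counts (uniSTING). Over the genes with at least 50 counts in every library, the libraries of 1 group differed by more than counting noise, with a chi-square per degree of freedom of 1.74 in Mock and 1.93 in uniSTING, against 37.9 between the first Mock and the first uniSTING library. Over the 14 mitochondrial genes with a mean of at least 50 counts and no full copy on chromosome 1 (below), it was 4.42 in Mock and 3.63 in uniSTING. At a given relative spread this measure grows with the counts, and mt-Co1 reached 114429 counts in uniSTING replicate 2. The values of these genes and of all genes therefore do not compare their spread. The 6 epithelial markers summed to 3664 to 3742 CPM (counts divided by the scaled library size, the usual depth-normalised unit), as a carcinoma line would have. The 6 leukocyte markers summed to 9.36 and 16.6 CPM in replicate 1 of Mock and uniSTING and to 0 in both second replicates. Nearly all of that sum was Lyz2, a myeloid gene, which was at 8.79 CPM in Mock replicate 1 and at 15.5 CPM in uniSTING replicate 1. Ptprc, another of these markers, was at 0.454 and 1.01 CPM in the same libraries and at 0 in both second replicates. Itgam, a defining marker of myeloid cells, was at 0 throughout. Fibroblast markers summed to 1.33 to 5.44 CPM and endothelial markers to 0.226 to 1.87 CPM, both higher in the first replicates. The part of these differences between replicates in the results below was not tested; the calls, the medians and the mitochondrial share were also computed without each library.

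Sequences are shown first for the 4 tRNA genes whose counts differed between the groups, with the anticodon in capitals. They are printed 5′ to 3′ in the direction of the RNA, from the GENCODE M21 transcripts of GRCm38; all 37 genes have the same positions there and in the GRCm39 tables.
mt-Tc, the cysteine tRNA (MT:5192-5257, - strand): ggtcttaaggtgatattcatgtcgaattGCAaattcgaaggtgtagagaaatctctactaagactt
mt-Tn, the asparagine tRNA (MT:5089-5159, - strand): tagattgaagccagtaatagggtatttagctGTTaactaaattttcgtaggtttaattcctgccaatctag
mt-Te, the glutamate tRNA (MT:14071-14139, - strand): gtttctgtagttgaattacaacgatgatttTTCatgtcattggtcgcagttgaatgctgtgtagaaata
mt-Tl1, a leucine tRNA (MT:2676-2750, + strand): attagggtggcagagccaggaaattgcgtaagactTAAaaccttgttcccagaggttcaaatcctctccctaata

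Neighbouring genes of mitochondrial DNA can share bases, and this bears on how they were counted. Per the file headers, a read pair that overlapped 2 genes was assigned to neither, and strand was not used. The 2 overlapping pairs of coding genes are shown by the last 90 bases of the upstream gene, with the shared bases in capitals.
mt-Atp8 (MT:7880-7969, + strand), 43 bases shared with mt-Atp6: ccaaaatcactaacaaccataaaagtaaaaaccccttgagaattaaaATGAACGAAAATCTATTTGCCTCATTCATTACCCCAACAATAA
mt-Nd4l (MT:10084-10173, + strand), 7 bases shared with mt-Nd4: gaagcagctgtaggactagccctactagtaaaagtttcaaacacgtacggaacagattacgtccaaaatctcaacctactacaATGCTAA

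The mitochondrial share of all counts was 1.34% and 1.31% in Mock, and 1.19% and 1.17% in uniSTING. Both uniSTING values lay below both Mock values, with a log2 ratio of -0.16. An exact permutation test of 2 libraries against 2 cannot give a p below 0.333, so single sums such as this share carry no test. In a bulk sample, fewer mitochondrial genomes, less RNA from each and more RNA from the nucleus cannot be told apart, nor can a change in all cells from one in some of them.

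Of the 37 genes, 24 passed the low-count filter and were tested with edgeR's quasi-likelihood test, with adjustment over 12972 genes. 13 were lower in uniSTING at an adjusted p under 0.05, 2 were higher and 9 were not called; over all tested genes, 25.4% were lower and 24.9% were higher. By type, 9 of 12 tested mRNA genes and both rRNA genes were lower, and the other 3 mRNA genes were not called. Of 10 tested tRNA genes, 2 were lower and 2 were higher. The median log2 fold change of the 12 mRNA genes was -0.17, against 0.01 over all tested genes. The remaining 13 genes, mt-Atp8 and 12 tRNA genes, had too few counts for a test.

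**Figure D1:**
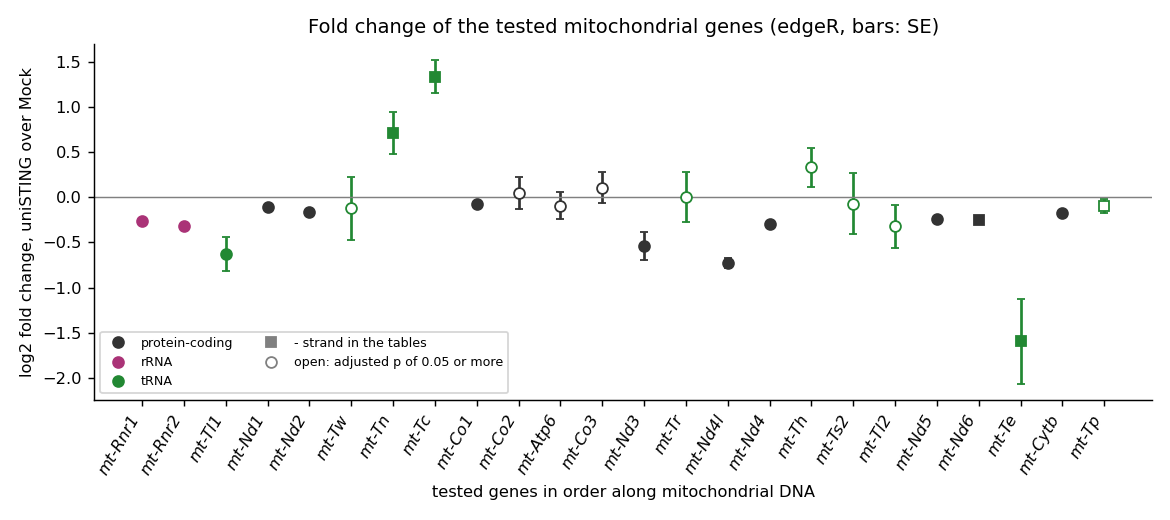
Log2 fold change of uniSTING over Mock (y axis) for the 24 tested mitochondrial genes in order along the DNA (x axis), with bars of 1 standard error; colours give the gene type, squares the - strand, and open symbols an adjusted p of 0.05 or more. The mRNA and rRNA genes with narrow bars lie below 0, mt-Nd4l lowest among them at -0.73, and mt-Tc and mt-Tn lie above it.

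Both rRNAs fell. mt-Rnr1, the RNA of the small mitochondrial ribosomal subunit (MT:70-1024), was at 238 and 223 CPM in Mock and at 192 and 191 CPM in uniSTING. Its log2 fold change was -0.27 (SE 0.031, adjusted p = 3.77e-05). mt-Rnr2, the RNA of the large subunit (MT:1094-2675), was at 391 and 380 CPM in Mock and at 316 and 302 CPM in uniSTING (log2 fold change -0.32, SE 0.026, adjusted p = 2.39e-06). For neither rRNA did the groups overlap. Summed, the rRNAs went from 616 ± 18.8 to 500.3 ± 11.5 CPM (SD, n = 2 each). The enrichment or removal of RNA classes before sequencing is not stated in the sources used here, so the rRNA level does not stand for the cell's rRNA content; per kb of gene, mt-Rnr1 and mt-Rnr2 were at 241 and 244 CPM in Mock against 3157 for mt-Co1.

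Complex I, the NADH dehydrogenase at which electrons enter the respiratory chain, takes 7 subunits from mitochondrial DNA, and all 7 of their mRNAs fell. Their summed level went from 5628 ± 58.3 to 4922 ± 55.6 CPM (SD, n = 2 each). The sizes differed widely among them, from a log2 fold change of -0.11 for mt-Nd1 to -0.73 for mt-Nd4l.

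mt-Nd4l (MT:9877-10173), a small membrane subunit, had the lowest fold change among the mRNA genes. It was at 59.1 and 59.6 CPM in Mock and at 36.6 and 35.2 CPM in uniSTING (log2 fold change -0.73, SE 0.056, adjusted p = 1.48e-06). mt-Nd4, which follows it and is carried on the same mRNA, was at 1181 and 1172 CPM in Mock and at 975 and 945 CPM in uniSTING (log2 fold change -0.29, SE 0.017, adjusted p = 1.54e-07). The groups did not overlap for either gene. The genes are counted apart only where a read pair touches 1 of them, so for mt-Nd4l the counts come from pairs that lie clear of the 7 shared bases printed above. A fragment that touches only mt-Nd4l can lie in a window of 291 bases. The first 294 bases of the gene are identical to those of its chromosome 1 copy, Gm10222 (below). Pairs that fit both places were not counted, so the origin of the mt-Nd4l counts is unclear and was not tested. Insert lengths were not analysed here.

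mt-Nd3 (MT:9459-9806), the subunit gene just upstream, was at 5.62 and 6.29 CPM in Mock and at 4.06 and 4.14 CPM in uniSTING. Its log2 fold change was -0.54 (SE 0.15, adjusted p = 0.0125). DESeq2 (adjusted p = 0.108) and the fit lacking Mock replicate 2 (edgeR adjusted p = 0.0949) did not call it.

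The other complex I mRNAs were abundant and their fold changes smaller. mt-Nd1 (MT:2751-3707) was at 2042 and 2022 CPM in Mock and at 1896 and 1869 CPM in uniSTING, and mt-Nd2 (MT:3914-4951) was at 991 and 964 against 880 and 869 CPM. Their log2 fold changes were -0.11 (adjusted p = 3.07e-05) and -0.16 (adjusted p = 1.83e-05). mt-Nd5 (MT:11742-13565), part of the proton-pumping arm, was at 1120 and 1108 CPM in Mock and at 946 and 942 CPM in uniSTING (log2 fold change -0.24, SE 0.014, adjusted p = 1.96e-07). In each of these genes both uniSTING libraries lay below both Mock libraries.

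mt-Nd6 (MT:13552-14070) is the only coding gene on the other strand, read from the light-strand promoter. It was at 271 and 254 CPM in Mock and at 223 and 218 CPM in uniSTING, with no overlap of the groups. Its log2 change of -0.25 (SE 0.031, adjusted p = 4.85e-05) lay between those of mt-Nd4 and mt-Nd5 on the heavy-strand transcript. Since strand was not used in counting, RNA of the opposite strand at this position cannot be told apart from mt-Nd6 mRNA, and 14 of its bases are shared with mt-Nd5.

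Complex III takes 1 subunit from mitochondrial DNA, cytochrome b. Its gene, mt-Cytb (MT:14145-15288), was at 2018 and 1996 CPM in Mock and at 1788 and 1777 CPM in uniSTING. The log2 fold change was -0.17 (SE 0.012, adjusted p = 7.80e-07), and the groups did not overlap.

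Complex IV, cytochrome c oxidase, takes 3 subunits, and 1 of their mRNAs fell. mt-Co1 (MT:5328-6872), the catalytic subunit, had the most counts of all mitochondrial genes, at 4889 and 4866 CPM in Mock and 4671 and 4597 CPM in uniSTING. Its log2 change of -0.07 (SE 0.010, adjusted p = 1.41e-04) was the nearest to 0 among the called mRNA genes. mt-Co2 (MT:7013-7696), which holds the copper centre that accepts electrons, was at 13.5 and 8.87 CPM in Mock and at 12.9 and 10.2 CPM in uniSTING. mt-Co3 (MT:8607-9390), the third core subunit, was at 4.99 and 4.62 CPM in Mock and at 5.87 and 4.50 CPM in uniSTING. The groups overlapped for both of these genes, and their log2 fold changes of 0.05 (SE 0.18) and 0.10 (SE 0.17) did not pass the test.

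Complex V, the ATP synthase, takes mt-Atp6 and mt-Atp8, both of its membrane part. mt-Atp6 (MT:7927-8607) was at 8.28 and 6.56 CPM in Mock and at 7.47 and 6.43 CPM in uniSTING, with overlapping groups and a log2 change of -0.09 (SE 0.15, adjusted p = 0.634). Of 14 alternatives, 1 called mt-Atp6 lower, with the trends of counts with gene length and GC content removed (edgeR adjusted p = 0.00846). mt-Atp8 (MT:7766-7969) had 3 and 7 counts under Mock, then 3 and 2 under uniSTING, too few for a test, and pairs that reached the 43 shared bases printed above were not assigned to it.

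Per kb of gene, the Mock level ran from 3157 CPM for mt-Co1 over 2124 for mt-Nd1, 1755 for mt-Cytb, 942 for mt-Nd2, 854 for mt-Nd4, 611 for mt-Nd5 and 506 for mt-Nd6 to 200 for mt-Nd4l. The genes from mt-Co2 to mt-Nd3, which lie next to each other, stood far below, at 16.4 for mt-Co2, 1.19 for mt-Atp8, 10.9 for mt-Atp6, 6.13 for mt-Co3 and 17.1 for mt-Nd3. These genes lie inside a stretch that is copied in the nuclear genome, described next; the copied stretch is wider than the gap and also takes in the end of mt-Co1, all of mt-Nd4l and the first part of mt-Nd4.

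**Figure D2:**
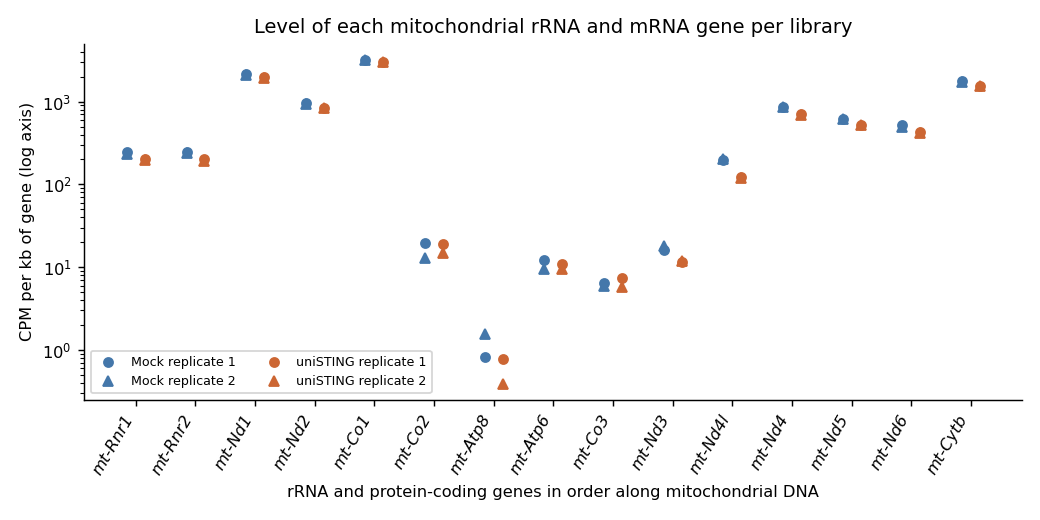
CPM per kb of gene (y axis, log axis) of the 2 rRNA and 13 protein-coding genes in order along mitochondrial DNA (x axis), 1 point per library; blue is Mock, orange uniSTING, circles replicate 1 and triangles replicate 2. The stretch from mt-Co2 to mt-Nd3 lies near or below 20, and mt-Co1 before it and mt-Nd4 after it lie far above it.

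Chromosome 1 carries a stretch of mitochondrial sequence, annotated as 7 pseudogenes between 24650616 and 24655278 (GRCm39, - strand). 6 of these were on a list of copies, and Gm10222 was added after its values were seen. Reference transcripts showed 0 mismatches over 681 bases between mt-Co2 and Gm28661, 678 bases between mt-Atp6 and Gm10925, and 783 bases between mt-Co3 and Gm28437. mt-Nd3 and Gm28438 differed over 345 bases by T3C alone, counted from 1 at the 5′ end of the mitochondrial gene. For mt-Nd4l and Gm10222 the match was 294 bases, and Gm28439 matched 63.6% of mt-Nd4, both without a mismatch. Gm29216 matched the last 31.8% of mt-Co1, with 6 mismatches: T1056A, C1057T, A1059G, A1060G, C1062A and A1066T.

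Since the tables were made from uniquely mapped reads, a read that fits both places does not count for either. The first lines below show where the copy begins within mt-Co1, with the differing bases in capitals, and the last shows the start of mt-Co2, which is identical to Gm28661 over these bases.
mt-Co1 (MT:6381-6440): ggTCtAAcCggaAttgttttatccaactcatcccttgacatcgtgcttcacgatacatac
Gm29216 (chr1:24655219-24655278, - strand): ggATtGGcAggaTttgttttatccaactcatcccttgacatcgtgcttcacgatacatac
mt-Co2 (MT:7013-7072): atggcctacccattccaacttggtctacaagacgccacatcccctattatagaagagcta

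For the copied genes, the counts of a mitochondrial gene and of its copy are therefore uncertain and were set side by side. mt-Co2 and Gm28661 had log2 fold changes of 0.05 and 0.29, mt-Atp6 and Gm10925 of -0.09 and -0.02, and mt-Co3 and Gm28437 of 0.10 and 0.13. None of these 6 values passed the test. mt-Nd3 and Gm28438 had log2 fold changes of -0.54 and -0.46, the latter with an adjusted p of 0.0268. The Gm28438 call was lost with DESeq2 (adjusted p = 0.165), without Mock replicate 2 (0.226) and without uniSTING replicate 2 (0.0539). Gm10222 was at 1.02 and 0.95 CPM in Mock and at 0.641 and 0.522 CPM in uniSTING, and its log2 change of -0.76 (SE 0.42, adjusted p = 0.155) did not pass. With the copy's counts added to those of its mitochondrial gene, no call among the 24 changed, and mt-Nd3 had a log2 fold change of -0.50 (adjusted p = 0.00286).

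**Figure D3:**
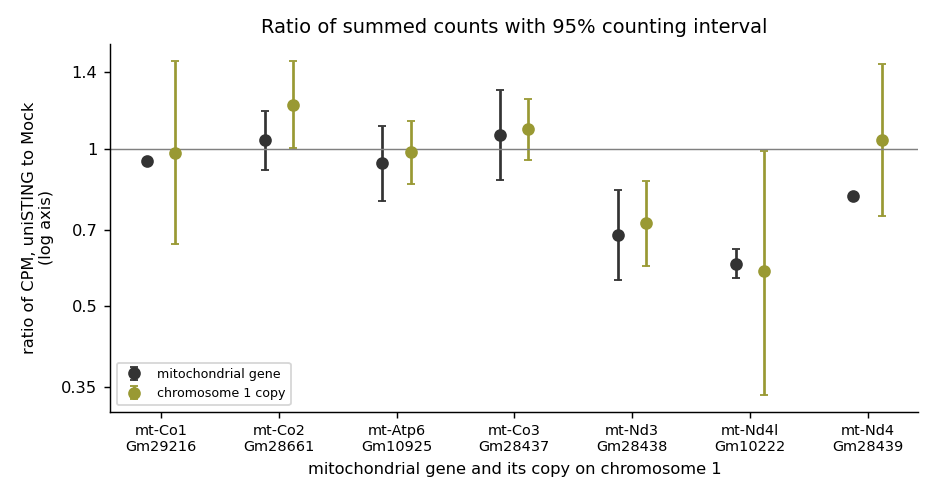
Ratio of CPM, uniSTING to Mock, from the summed counts of each group (y axis, log axis), for 7 mitochondrial genes (black) and their chromosome 1 copies (olive) on the x axis; bars are exact 95% intervals for counting error only. mt-Nd3, mt-Nd4l and their copies lie below 1, and mt-Co2, mt-Atp6, mt-Co3 and the copies of these have intervals that reach 1 or come within 0.01 of it.

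Some of the copied genes also differed between the replicates of a group. The summed CPM of mt-Co2, mt-Atp6 and mt-Co3 in replicate 2 was 0.749 of that in replicate 1 in Mock (95% interval 0.656 to 0.854) and 0.806 in uniSTING (0.712 to 0.914). Their copies gave 0.791 and 0.763. The 6 abundant mRNAs outside the stretch, mt-Nd1, mt-Nd2, mt-Co1, mt-Nd4, mt-Nd5 and mt-Cytb, gave 0.991 and 0.986. The second replicate was the deeper library in both groups, by 1.3 times. Intervals of this kind cover counting error only.

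Because 9 of the 12 tested mRNA genes fell, the genes were also compared with the libraries scaled to the summed counts of the 13 protein-coding mitochondrial genes, which asks which of them changed relative to the mitochondrial mRNA total. On this scale 9 of 24 genes were lower and 3 were higher, against 14.2% lower and 40.1% higher of all tested genes, whose median shifted to 0.15. The lower genes were mt-Rnr1, mt-Rnr2, mt-Nd3, mt-Nd4l, mt-Nd4, mt-Nd5, mt-Nd6, mt-Tl1 and mt-Te. The higher ones were mt-Co1, mt-Tn and mt-Tc.

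mt-Nd4l had a relative log2 change of -0.58 (SE 0.059, adjusted p = 4.25e-06), and its call held in each of the 7 alternatives run on this scale. mt-Nd4 was at -0.15 and mt-Rnr2 at -0.18, and both calls were lost in 1 alternative, the scaling to the geometric mean of the mRNA genes. mt-Co1 was at 0.07 (adjusted p = 0.00712); it makes up much of the sum, and its call was also lost with the geometric mean (adjusted p = 0.232). mt-Nd1, mt-Nd2 and mt-Cytb, at 0.03, -0.02 and -0.03, were not called. The calls of mt-Nd3 and mt-Tl1 were lost in 6 and 5 of the 7, those of mt-Te, mt-Rnr1 and mt-Nd6 in 3 each, that of mt-Nd5 in 2 and that of mt-Tn in 1. With mt-Co1 left out of the sum, 4 genes were lower, and with the geometric mean 2 were; without Mock replicate 1, 4 were, and without Mock replicate 2 or uniSTING replicate 2, 6 were.

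By position, the 3 abundant mRNAs in the first part of the heavy-strand transcript, mt-Nd1, mt-Nd2 and mt-Co1, summed to 7887 ± 49.99 CPM in Mock and 7391 ± 79.6 in uniSTING, a difference of -6.29%. mt-Nd4, mt-Nd5 and mt-Cytb, in the last part, summed to 4298 ± 30.1 and 3687 ± 31.1 CPM, a difference of -14.2% (SD, n = 2 each). mt-Nd3 and mt-Nd4l, which lie between these parts, summed to 65.3 ± 0.780 and 40.0 ± 0.883 CPM, a difference of -38.7%, with mt-Nd4l holding most of the sum. These 2 had the lowest fold changes of the tested mRNA genes, and both have full copies on chromosome 1. The pair is not a class by position. mt-Co2, mt-Atp8, mt-Atp6 and mt-Co3 also lie between the parts, and mt-Nd3 is counted again in the next sum. The stretch from mt-Co2 to mt-Nd3, where mt-Co2, mt-Atp6 and mt-Co3 were not called, summed to 29.6 ± 4.18 and 27.9 ± 3.59 CPM, a difference of -5.82%. The order was not a gradient along the DNA. mt-Cytb, the last mRNA gene, fell less than mt-Nd4, and both rRNAs, which precede the mRNA genes, fell more than mt-Nd1. Across the 14 tested rRNA and mRNA genes, Spearman's rho of the log2 fold change was -0.16 with the start position and 0.13 with gene length. Across the 9 genes without a full copy on chromosome 1, rho with the Mock level per kb was 0.85, the genes with the highest counted level having fallen least. Among these, mt-Co1 and mt-Nd4 are matched by copies over 31.8% and 63.6% of their length. Reads that fit both places were not counted, but the level was divided by the full gene length. The level of mt-Co1 and mt-Nd4 may therefore be too low, and rho was not computed on the uncopied part. The lowest of the 9 were mt-Rnr1 and mt-Rnr2, at 241 and 244 CPM per kb, whose level does not stand for the cell's rRNA content. These genes share their libraries, and the values are descriptions.

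The tRNA genes held few counts, 702 of the 233940 mitochondrial counts in the first Mock library. Mature tRNAs are short and structured. For most tRNA genes between neighbours, the counted window is about as long as the gene. Fragments counted there are short or come from a longer RNA that touches no annotated neighbour. Since strand was not used in counting, RNA of the opposite strand at a tRNA gene cannot be told apart from the tRNA. Summed over all 22, the level was 39.6 ± 0.326 CPM in Mock and 41.0 ± 0.887 in uniSTING (SD, n = 2 each), while the mRNA sum went from 12537 to 11362 CPM.

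mt-Tc, the cysteine tRNA printed above, had 36 and 47 counts under Mock, then 105 and 123 under uniSTING. In CPM these were 2.04 and 2.13 against 5.60 and 4.94, so both uniSTING libraries were more than 2 times as high as either Mock library. The log2 fold change was 1.33 (SE 0.18, adjusted p = 1.30e-04), the highest of the 24 tested mitochondrial genes, and the call held in each of the 14 alternatives. The ratio of summed counts was 2.50, with a 95% counting interval of 1.94 to 3.26.

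mt-Tn, the asparagine tRNA, had 32 and 58 counts under Mock, then 74 and 85 under uniSTING, at a log2 change of 0.71 (SE 0.23, adjusted p = 0.0253). The groups did not overlap, at 1.82 and 2.62 against 3.95 and 3.41 CPM. The call was lost in 5 of 14 alternatives: with DESeq2 (adjusted p = 0.118), without Mock replicate 1 (0.166), without uniSTING replicate 1 (0.0690), and with the trend of counts with gene length removed, alone (0.246) or together with GC content (0.659).

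mt-Tn and mt-Tc are neighbours on the - strand and flank the origin of light-strand replication, a short hairpin with no annotated gene. A fragment that touches only mt-Tn can lie in a window of 105 bases, and one that touches only mt-Tc in a window of 100 bases, against 58 to 75 bases for the other tested tRNA genes between neighbours. mt-Ta and mt-Ty, on either side of the pair on the same strand, had 0, 0, 1 and 4 counts and 1, 7, 2 and 4 counts in the order Mock 1, Mock 2, uniSTING 1, uniSTING 2. These were too few to test.

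mt-Te, the glutamate tRNA next to mt-Nd6, had 19 and 23 counts under Mock, then 8 and 7 under uniSTING. Its log2 fold change was -1.59 (SE 0.47, adjusted p = 0.0155), with a ratio of summed counts of 0.325 (95% counting interval 0.168 to 0.598). The call was lost under DESeq2 (adjusted p = 0.0840), without Mock replicate 1 (0.0837), without Mock replicate 2 (0.100) and without uniSTING replicate 2 (0.131).

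mt-Tl1, the leucine tRNA between mt-Rnr2 and mt-Nd1, was at 4.20 and 4.16 CPM in Mock and at 2.94 and 2.49 CPM in uniSTING (log2 fold change -0.63, SE 0.19, adjusted p = 0.0172). The direction was that of both flanking genes. The call was lost under DESeq2 (adjusted p = 0.126), without Mock replicate 1 (0.0675), without Mock replicate 2 (0.0733) and without uniSTING replicate 2 (0.0871).

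mt-Tp, the proline tRNA, is the last annotated gene along the DNA, and its counted window has no neighbour to bound it there. It held the most tRNA counts, 342 and 400 in Mock and 320 and 445 in uniSTING. Its log2 change of -0.10 (SE 0.076, edgeR adjusted p = 0.323) did not pass. With the length trend removed it was called lower (-0.45, adjusted p = 0.00167). The other 5 tested tRNA genes did not pass either: mt-Tw (tryptophan) had a log2 fold change of -0.12, mt-Tr (arginine) of 0.00, mt-Th (histidine) of 0.33, mt-Ts2 (serine) of -0.07 and mt-Tl2 (leucine) of -0.32. Their standard errors ran from 0.22 to 0.35. mt-Tl2 was called lower with the length trend removed (-0.67, adjusted p = 0.0416) and with GC content also removed (-0.90, adjusted p = 0.0107).

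Strand was not used in counting, so the sums below group tRNA genes by annotated strand, not by the strand of the RNA. The 8 tRNA genes of the - strand summed to 24.6 and 24.6 CPM in Mock and to 27.5 and 27.4 CPM in uniSTING. The ratio was 1.12 (95% counting interval 1.03 to 1.22). Of their summed counts, 977 in Mock and 1199 in uniSTING, mt-Tp held 742 and 765, and mt-Tc held 83 and 228. The 14 tRNA genes of the + strand summed to 15.2 and 14.8 CPM against 12.9 and 14.2 CPM, a ratio of 0.911 (0.811 to 1.02). On the - strand the members did not move together, since mt-Tc and mt-Tn rose and mt-Te fell, as did mt-Nd6.

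**Figure D4:**
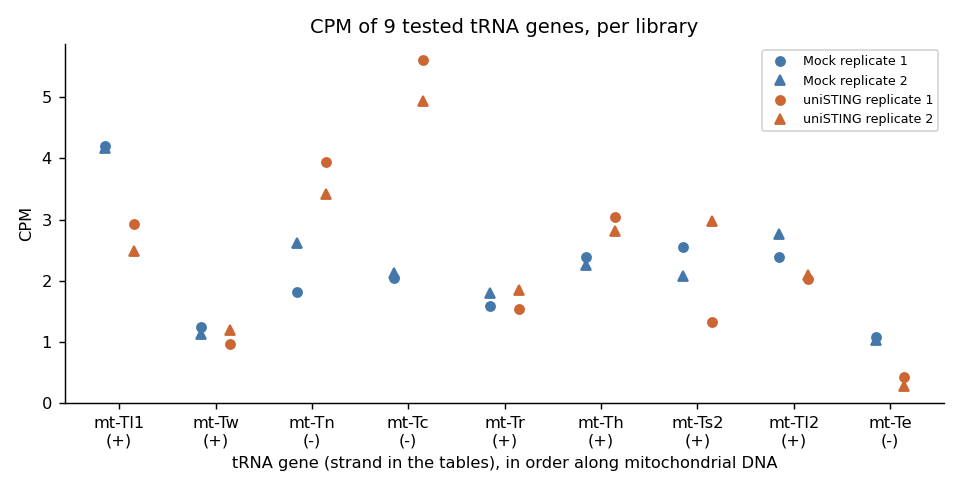
CPM (y axis) of 9 tested tRNA genes in order along mitochondrial DNA, with their strand (x axis), 1 point per library; blue is Mock, orange uniSTING, circles replicate 1 and triangles replicate 2, and mt-Tp, at 17.1 to 19.4 CPM, is left out. The uniSTING points lie above the Mock points for mt-Tc and mt-Tn and below them for mt-Tl1 and mt-Te.

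Nuclear genes that transcribe mitochondrial DNA did not move as a group. Of 10 tested, 3 were higher and 1 was lower, against 24.9% higher and 25.4% lower of all tested genes. The median log2 fold change was 0.13, and -0.00 with the length trend removed. Polrmt, the polymerase, went from 42.6 ± 0.30 to 37.0 ± 0.616 CPM (SD, n = 2 each), with a log2 change of -0.20 (adjusted p = 0.0176), and its call was lost with DESeq2 (adjusted p = 0.0836), without Mock replicate 1 (0.0554) and with length and GC trends removed (0.771). Tfam, which packages the DNA and starts transcription, was at 76.5 ± 1.28 and 76.0 ± 4.21 CPM (adjusted p = 0.938). Tfb2m, the initiation factor, and Tefm, the elongation factor, had log2 fold changes of 0.06 and -0.07 and were not called. Tefm was called lower with the length trend removed (-0.26, edgeR adjusted p = 0.0197) and with GC content also removed (-0.31, adjusted p = 0.00814). Mrpl12, a ribosomal protein also described as binding the polymerase, rose by 0.36 on the log2 scale (adjusted p = 5.51e-07), or by 0.16 with the length trend removed, and Mterf3, a member of the MTERF family, by 0.36 (adjusted p = 0.0147), a call lost without Mock replicate 2 (adjusted p = 0.0986) or uniSTING replicate 1 (0.103). The third higher gene, Mterf1a of the same family, at 0.55, lost its call in 6 of 14 alternatives.

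Of 40 tested genes for processing, modification and stability of mitochondrial RNA, 6 rose, 6 fell and 28 were not called, fewer in either direction than the 24.9% higher and 25.4% lower of all tested genes. Lrpprc, whose protein binds and stabilizes the heavy-strand mRNAs, went from 177 ± 0.666 to 143 ± 4.92 CPM, by -0.31 on the log2 scale (SE 0.029, adjusted p = 7.77e-06). Its partner Slirp was at 1.52 ± 0.0994 and 1.80 ± 0.166 CPM and was not called (adjusted p = 0.499). Mtpap, the mitochondrial poly(A) polymerase, had a log2 fold change of -0.22 (adjusted p = 0.0232), lost in 4 of 14 alternatives, among them the fits without Mock replicate 1 (0.0851) and without uniSTING replicate 1 (0.179). Pnpt1, the exonuclease that degrades mitochondrial RNA, rose from 77.2 ± 0.263 to 96.7 ± 0.242 CPM (log2 fold change 0.33, adjusted p = 9.65e-06), and its helicase partner Supv3l1 had a log2 fold change of -0.06 and was not called. Dhx30 and Tbrg4, both RNA granule proteins, fell by 0.31 and 0.30 on the log2 scale; for Dhx30 the value was -0.11 with the length trend removed and -0.05 with GC content also removed, where its call was lost (adjusted p = 0.255).

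Of 19 tested genes for replication and the nucleoid, 1 rose and 6 fell, the latter near the 25.4% lower of all tested genes. Twnk, the replicative helicase, went from 53.4 ± 0.140 to 39.9 ± 0.658 CPM, with a log2 change of -0.42 (adjusted p = 9.46e-05). Polg, the DNA polymerase, had a log2 fold change of -0.18 (adjusted p = 0.00528), which became 0.02 with the length trend removed. This call was also lost without Mock replicate 2 (adjusted p = 0.0635). Ssbp1, the single-strand binding protein, rose by 0.23 (adjusted p = 0.00619). With the length trend removed, 3 genes of this list were higher and 2 were lower, against 23.4% and 22.2% of all tested genes.

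Of 7 tested regulators of mitochondrial biogenesis, 4 fell and 2 rose, against 25.4% and 24.9% of all tested genes. Pprc1, a coactivator of the PGC-1 family, went from 191 ± 4.96 to 128 ± 1.32 CPM, with a log2 change of -0.58 (adjusted p = 4.30e-08). Ppargc1b, another coactivator of the family, had a log2 fold change of -0.95 (adjusted p = 0.0105; 0.0569 without Mock replicate 2), and Ppargc1a had 1 count over the 4 libraries together. Nrf1 and Gabpa, transcription factors for nuclear genes of mitochondria, fell by 0.18 and 0.17 on the log2 scale; for Nrf1 the value became 0.01 with the length trend removed. The higher genes were Esrra, a nuclear receptor, at 0.21, and Gabpb1, the partner of Gabpa, at 0.18, both named after their values were seen. The median of the list was -0.17, and 0.01 with the length trend removed.

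Most nuclear subunit genes of these complexes were higher. Of 70 tested nuclear subunit genes of complexes I, III, IV and V, 58 were higher, 1 was lower and 11 were not called. Over all tested genes, 24.9% were higher and 25.4% were lower. The median log2 fold change of the 70 genes was 0.35. By complex the medians were 0.36 for complex I (36 genes, 27 higher), 0.64 for complex III (9 genes, 8 higher), 0.42 for complex IV (10 genes, all higher) and 0.32 for complex V (15 genes, 13 higher and 1 lower, Atp5g1 at -0.53, named after its value was seen). Complex II, which has no mitochondrially encoded subunit, had a median of 0.07, with 2 of 4 genes higher. Ndufs6, a subunit of complex I, went from 25.7 ± 0.176 to 52.3 ± 0.607 CPM (log2 fold change 1.02, adjusted p = 2.46e-07). Uqcrh of complex III, Cox7b of complex IV and Atp5e of complex V rose by 0.86, 0.83 and 0.62 on the log2 scale.

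**Figure D5:**
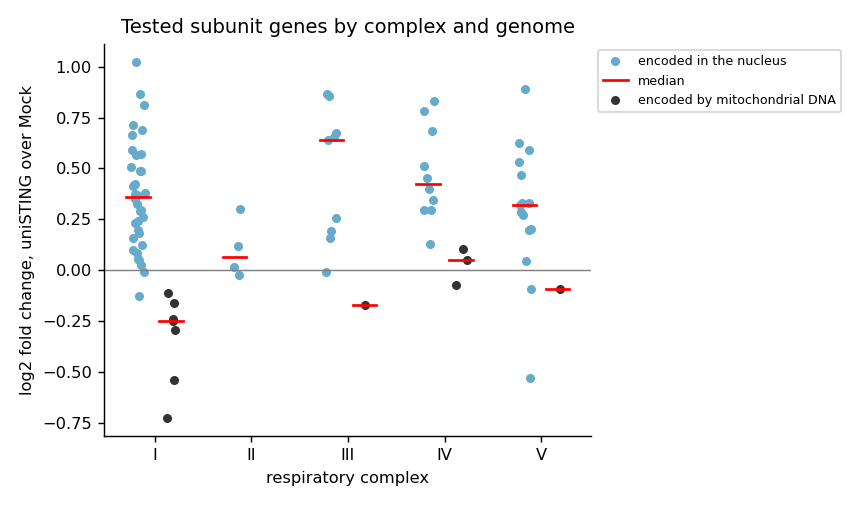
Log2 fold change of uniSTING over Mock (y axis) for every tested subunit gene of complexes I to V (x axis), nuclear genes in blue and mitochondrial genes in black, with red bars at the medians. In complexes I and III the mitochondrial genes lie below 0 and most nuclear genes above it. The mitochondrial genes of complexes IV and V lie near 0. Of these, mt-Co1 was called lower, and mt-Co2, mt-Co3 and mt-Atp6 have full copies on chromosome 1, few counts and SEs of 0.15 to 0.18.

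Gene length moved with these differences. The small subunit genes are short. With each library's trend of counts with exon length removed, 42 of the 70 nuclear subunit genes were higher and 2 were lower. Their median was 0.19. Over all tested genes, 23.4% were then higher and 22.2% lower. The mitochondrial values moved away from 0 under the same correction: the median of the 12 mRNA genes was -0.40, mt-Nd4l was at -1.04, mt-Nd4 at -0.50 and mt-Rnr2 at -0.51, and with GC content also removed the median was -0.57. mt-Tc was at 0.98 with length removed and at 0.79 with both. The part of length in either group of genes was not tested beyond these values.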

How the data were processed

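The authors deposited 1 table of raw counts per gene for each of 4 libraries. Per the file headers, counts were made with featureCounts 2.0.1 on exons of the Ensembl 103 annotation (GRCm39), paired-end, without a strand option, on alignments that mapped to 1 place; HISAT2 made these, per the submitters' processing notes, which give no version. Groups came from the titles. Counts were tested with edgeR 4.0.16 (R 4.3.3): TMM, low genes removed by filterByExpr (count 10, total 15), glmQLFit, glmQLFTest, Benjamini-Hochberg adjustment over all 12972 tested genes, threshold 0.05. CPM used TMM-scaled library sizes. Standard errors were derived from the F statistic. A second fit scaled libraries to the summed protein-coding mitochondrial counts. Ratios of summed counts carry exact binomial 95% intervals. Alternatives were DESeq2 1.42.0 (test, size factors), limma-voom (limma 3.58.1), other filters, a replicate block, leaving out each library, nuclear library size, and removed length trends (lowess span 0.3); adding chromosome 1 copies and removing GC were chosen after seeing the data. Copies were compared with GENCODE M21 transcripts. The fit was tested on simulated data. The rule named all mitochondrial genes, chosen nuclear genes and, for each list, at most the 4 of smallest p. Members and lists were chosen with earlier results of these data known.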

Additional observations from a re-analysis of the deposited data

How the results depend on the processing

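Across 14 alternatives no tested mitochondrial gene with a call changed sign. The 13 lower and 2 higher calls became 10 and 1 with the DESeq2 test, 15 and 1 with the length trend removed and 16 and 1 with length and GC trends removed (mt-Tn lost in each), and 10 to 13 lower and 1 to 2 higher calls with 1 library left out; with 1 library in a group, that library was assumed to vary like those of the other group. Relative to the mitochondrial mRNA total, the 9 lower calls became 4 without mt-Co1 in the sum, 2 with the geometric mean and 4 to 8 with 1 library left out, and the 3 higher calls became 3 to 4. The log2 ratio of the mitochondrial share was -0.16, -0.27 as counts per kb and -0.18 to -0.15 with 1 library left out. The 58 higher nuclear subunit genes became 55 to 60 with 1 library left out. The causes were not tested.

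The labels number the preparations of both groups. With the replicate number as a replicate block, 13 genes were lower and 2 higher, as without it; relative to the mRNA total, 10 were lower and 4 higher. Differences between replicates 1 and 2 correlated between the groups at 0.63 over 12972 genes and at 0.05 over the 7965 genes with a mean log2 CPM over 4, and the labels give no shared culture or day, so the numbers were not taken as pairs. Depth limits the tRNA genes most: 12 of 22, and mt-Atp8, had too few counts to test.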

Other observations

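Genes often used as markers of mitochondrial mass were mixed: of 15 tested, 9 were higher, 1 was lower and 5 were not called by edgeR's test, against 24.9% higher and 25.4% lower of all tested genes, with a median log2 fold change of 0.13. Cs, the citrate synthase gene, was at 494 ± 0.636 CPM in Mock and 493 ± 7.25 in uniSTING (SD, n = 2 each) and was not called, and neither was Vdac1, an outer membrane channel, with a log2 fold change of -0.05. With the length trend removed, Cs was called higher (0.055, edgeR adjusted p = 0.0339) and Vdac1 lower (-0.14, adjusted p = 6.8e-04). With GC content also removed, both calls stayed (0.049, adjusted p = 0.0495, and -0.12, adjusted p = 0.00151). Tomm20, an import receptor, rose by 0.41 on the log2 scale (adjusted p = 1.96e-08), and Hspe1, the matrix co-chaperonin, by 0.68 (adjusted p = 1.99e-09). The lower gene was Hspa9, a matrix chaperone, at -0.07.

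Of 11 tested genes of mitophagy, the removal of mitochondria by autophagy, 7 were higher and 1 was lower, against 24.9% higher and 25.4% lower of all tested genes, with a median log2 fold change of 0.15. Bnip3, a mitophagy receptor of the outer membrane, went from 40.6 ± 2.90 to 113 ± 5.85 CPM (log2 fold change 1.48, adjusted p = 4.51e-09). Its relative Bnip3l rose by 0.69 and Optn, an autophagy receptor, by 0.68 on the log2 scale. The lower gene was Usp30, a deubiquitinase that counters mitophagy, at -0.18 (adjusted p = 0.0473), named after its value was seen. With the length trend removed, 8 genes of this list were higher and 0 were lower, so the Usp30 call was lost. Over all tested genes, 23.4% were then higher and 22.2% lower. With GC content also removed, 7 were higher and 1 was lower, against 22.0% and 21.5% of all tested genes.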
